A study of Mus musculus with 8 samples.

Results

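Genes of fat cell lipid storage and lipolysis were followed in the palate region of newborn mice whose dams had received saline or nicotine. The set holds 10 genes: Pnpla2, Lipe, Abhd15, Plin1, Cidec, Dgat2, Acacb, Lpl, Fabp4 and Adipoq. They are lipid droplet, lipase and general fat cell genes selected on their intensities over the doses as well as on their roles, so that their levels and differences are given as a description, with no test. Of the 10, 9 had a probe set of their own among the 18194 genes read on the arrays, and Plin1 was not analysed here. All 9 lay above the level filter used for testing on every array.

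The tissue came from BALB/c pups on postnatal day 1 and is labelled as the rear part of the palate. The dams carried an osmotic minipump, a device that releases fluid at a steady rate, and its filling was saline in the controls and nicotine at a daily dose of 1.5, 3.0 or 4.5 mg/kg in the others. With 2 Affymetrix arrays to a group, 8 in all, the labels call the arrays of a group biological replicates, and the sources used here do not say whether their pups shared a dam. The p-values below measure only the spread between these samples.

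A fat cell keeps energy as triglyceride in a lipid droplet. Fatty acids reach the cell through lipoprotein lipase at the vessel wall, are carried inside by fatty acid binding proteins, and are joined to glycerol by acyltransferases that include Dgat2. Release runs the other way: adipose triglyceride lipase (Pnpla2) removes the first fatty acid, hormone-sensitive lipase (Lipe) the next, and droplet proteins such as perilipin 1 (Plin1) and Cidec control the access of the lipases and the size of the droplet. Brown fat, which newborn mice carry between the shoulders and around the neck, uses the same machinery to feed heat production by Ucp1.

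Windows of 250 bases before the transcription start were read from RefSeq (GRCm38.p6) for 7 of the genes, Pnpla2, Lipe, Abhd15, Plin1, Cidec, Acacb and Adipoq, in 9 windows in all. The 4 below are shown because the probe set used for their genes had both 3.0 mg/kg/day arrays above both saline arrays. They also differ in composition. Capitals mark matches to any of 3 motifs, searched on both strands, and no match overlaps another in the windows shown. The GC box, which binds factors of the Sp family, was searched as GGGCGG. The CCAAT box was searched by its own letters. The motif of the C/EBP factors, which act early in fat cell formation, was searched as TTGCNNAA. The Pnpla2 window is chr7:141454938-141455187 on the plus strand, the Abhd15 window chr11:77514867-77515116 on the plus strand, the Cidec window chr6:113434765-113435014 on the minus strand and the Adipoq window chr16:23146286-23146535 on the plus strand.
Pnpla2: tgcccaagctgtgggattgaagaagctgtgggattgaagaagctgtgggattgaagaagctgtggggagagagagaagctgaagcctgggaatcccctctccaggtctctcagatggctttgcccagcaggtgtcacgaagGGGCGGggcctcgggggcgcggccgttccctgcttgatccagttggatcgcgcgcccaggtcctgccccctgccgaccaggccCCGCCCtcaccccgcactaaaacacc
Abhd15: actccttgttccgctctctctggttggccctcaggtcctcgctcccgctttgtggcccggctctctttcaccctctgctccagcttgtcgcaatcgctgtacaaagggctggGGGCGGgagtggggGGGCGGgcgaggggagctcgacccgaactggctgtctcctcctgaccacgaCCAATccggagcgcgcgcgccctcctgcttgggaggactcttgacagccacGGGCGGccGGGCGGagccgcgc
Cidec: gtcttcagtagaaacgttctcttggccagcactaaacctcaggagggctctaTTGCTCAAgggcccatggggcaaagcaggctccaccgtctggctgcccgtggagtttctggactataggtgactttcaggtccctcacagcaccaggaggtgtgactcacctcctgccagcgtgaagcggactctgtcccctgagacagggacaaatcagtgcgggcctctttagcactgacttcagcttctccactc
Adipoq: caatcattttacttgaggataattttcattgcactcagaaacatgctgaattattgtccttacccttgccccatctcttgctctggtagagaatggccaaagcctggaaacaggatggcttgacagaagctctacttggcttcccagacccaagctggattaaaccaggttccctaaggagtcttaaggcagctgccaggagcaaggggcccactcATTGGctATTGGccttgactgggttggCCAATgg

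The lipase window of Pnpla2 was 63.2% G and C and held 2 GC boxes, and that of Abhd15 was 68.8% G and C and held 4 GC boxes and 1 CCAAT box. The Cidec window shown was 56.8% G and C with 1 match to the C/EBP motif. A second Cidec window, not shown, was 52.8% G and C with no match to any of the 3 motifs. The Adipoq window was 48.8% G and C with 3 CCAAT matches. The median over the 32851 windows of all genes was 52.4%. Among those windows the GC box was found in 32.7%, the CCAAT box in 33.8% and the C/EBP motif in 9.56%. Of the 9 windows of the set, 3 held the GC box, 3 the CCAAT box and 2 the C/EBP motif. None of the 9 held AGGTCA, a nuclear receptor half-site found in 14% of all windows.

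The arrays differed in the marker sums of several tissues, and these values are to be read beside everything that follows. Summed intensities of 11 stomach markers lay between 187 and 204 on the 6 nicotine arrays and at 10537 and 10805 on the 2 saline arrays. Those of 11 intestine markers lay between 178 and 603 on the nicotine arrays and at 10126 and 15500 on the saline arrays. Liver markers summed to 18965 on replicate 2 of 1.5 mg/kg/day and to 111 to 150 on the other 5 nicotine arrays, against 14225 and 34580 on the saline arrays. Lung markers, 9 in number, summed to 165 to 13622 on the nicotine arrays and to 527 and 529 on the saline arrays. Skeletal muscle markers, all 13 above the level filter on every array, summed to 40035 to 51528 on the nicotine arrays and to 27009 and 36228 on the saline arrays. Of the 12 palate and oral epithelium markers read, 9 to 11 were above the filter, with sums of 584 to 3162 on the nicotine arrays and 528 and 994 on the saline arrays. The 3′ to 5′ ratio of the actin probe sets, a sign of RNA breakdown, was 0.95 to 1.39 on the nicotine arrays and 1.65 and 1.74 on the saline arrays. The Y-linked gene Eif2s3y read 236 on replicate 1 of 3.0 mg/kg/day and 301 on replicate 1 of saline, and no more than 6.86 on the other 6 arrays. The part of these differences in the results was not tested. In bulk tissue, fewer cells of a type and less RNA per cell cannot be told apart.

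**Figure D1:**
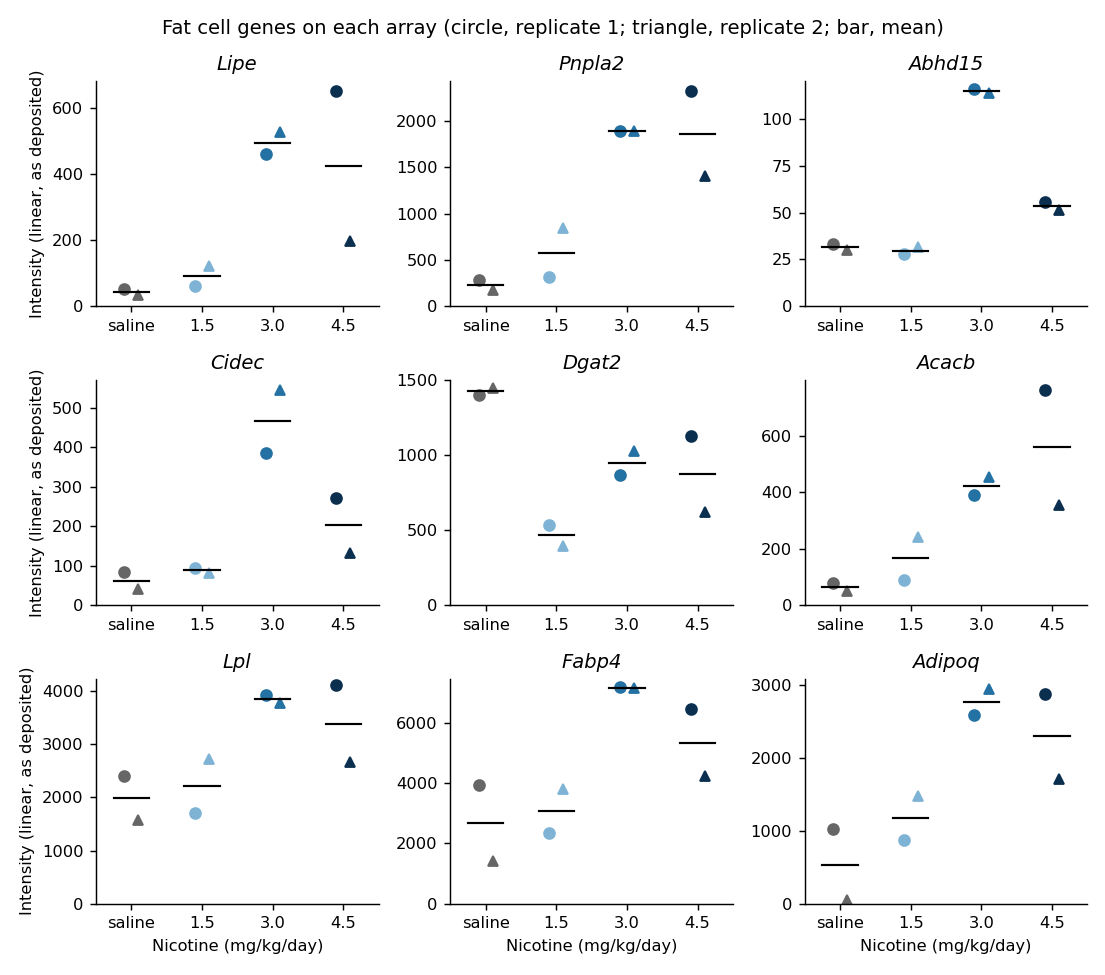
Deposited intensity (linear axis) of the 9 genes on each array, by dose in mg/kg/day with saline at the low end; each point is 1 array and each bar the mean of 2. The arrays of 3.0 and 4.5 mg/kg/day lie above both saline arrays for 8 genes, while Dgat2 lies below both saline arrays on all 6 nicotine arrays.

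Pnpla2, which starts triglyceride breakdown, was read at 282 and 172 on the saline arrays, 313 and 844 at 1.5, 1892 and 1893 at 3.0, and 2323 and 1401 at 4.5 mg/kg/day (deposited intensities, replicates 1 and 2). All 6 nicotine arrays lay above both saline arrays, and the 3.0 arrays lay between the 4.5 arrays. On the log2 scale used for fitting, log2(intensity + 16), Pnpla2 differed from saline by 1.31, 2.96 and 2.94 with rising dose, each with a standard error of 0.44. The added 16 understates the change of genes near background. A second, much weaker Pnpla2 probe set was read at 13.5 and 10.2 on the saline arrays and 10.3 and 11.2 at 1.5, so that these overlapped. At 3.0 it was read at 28.9 and 40.3, and at 4.5 mg/kg/day at 31.0 and 18.6.

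Lipe, which takes the second fatty acid and answers to adrenergic signals, was read at 51.2 and 32.9 on the saline arrays, 61.6 and 123 at 1.5, 460 and 526 at 3.0, and 651 and 199 at 4.5 mg/kg/day. It too was above both saline arrays on all 6 nicotine arrays, and its 4.5 mg/kg/day arrays lay on either side of the 3.0 pair. Lipe differed from saline by 0.93, 3.19 and 2.83 on the log2 scale (standard error 0.49). The second Lipe probe set stayed between 2.21 and 9.78 on all arrays, under the level filter.

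Abhd15, a fat cell protein that takes part in the braking of lipolysis by insulin, was read at 33.5 and 29.9 on the saline arrays, 27.6 and 31.8 at 1.5, 116 and 114 at 3.0, and 55.6 and 51.4 at 4.5 mg/kg/day. Here the lowest dose overlapped saline, and both 3.0 arrays stood above both 4.5 arrays. The log2 differences from saline were −0.03, 1.54 and 0.70 (standard error 0.15). Leaving out either saline array left the 3.0 mg/kg/day difference at 1.54. A second, weaker Abhd15 probe set was read at 17.97 and 7.95 on the saline arrays and 16.78 and 8.38 at 1.5. At 3.0 it was read at 23.06 and 17.7, and at 4.5 mg/kg/day at 16.27 and 18.1. There the 3.0 arrays overlapped both saline and 4.5. Without normalization its log2 difference for the mean of the doses was 0.18, against 0.65 for the probe set used.

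Cidec, which lets droplets fuse into larger ones, was read at 84.0 and 39.6 on the saline arrays, 93.8 and 82.2 at 1.5, 386 and 545 at 3.0, and 272 and 132 at 4.5 mg/kg/day. The 1.5 arrays overlapped saline, and both 3.0 arrays lay above both 4.5 arrays. The log2 differences from saline were 0.55, 2.71 and 1.61 (standard error 0.38).

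Dgat2, the acyltransferase that completes triglyceride, ran the other way. It was read at 1401 and 1448 on the saline arrays, 536 and 395 at 1.5, 866 and 1027 at 3.0, and 1128 and 621 at 4.5 mg/kg/day. All 6 nicotine arrays lay below both saline arrays, and within nicotine the 1.5 arrays were the lowest. The log2 differences from saline were −1.55, −0.70 and −0.80 (standard error 0.31). A second Dgat2 probe set was read at 327 and 706 on the saline arrays, 202 and 110 at 1.5, 285 and 396 at 3.0, and 303 and 234 at 4.5 mg/kg/day, so that there 1 array of 3.0 lay inside the saline pair. Dgat2 is also a gene of liver and intestine, whose summed markers were high on the saline arrays as given above. Liver markers also summed to 18965 on replicate 2 of 1.5 mg/kg/day, where both Dgat2 probe sets had their lowest readings, 395 and 110. The part of these sums in Dgat2 was not tested.

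Acacb, the acetyl-CoA carboxylase whose product holds back the entry of fatty acids into mitochondria, was read at 78.4 and 50.5 on the saline arrays, 89.1 and 242 at 1.5, 390 and 455 at 3.0, and 764 and 356 at 4.5 mg/kg/day. All 6 nicotine arrays were above both saline arrays. The log2 differences were 1.16, 2.52 and 2.87 (standard error 0.46), and Acacb alone of the 9 stood higher at 4.5 than at 3.0 mg/kg/day in the fitted means.

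Lpl, the lipase that frees fatty acids from circulating lipoproteins, was read at 2406 and 1584 on the saline arrays, 1698 and 2723 at 1.5, 3915 and 3770 at 3.0, and 4107 and 2655 at 4.5 mg/kg/day. The 1.5 arrays overlapped saline, while the higher doses lay above it. The log2 differences were 0.19, 0.85 and 0.71 (standard error 0.27), small beside those of Pnpla2 and Lipe. A second Lpl probe set was read at 631 and 464 on the saline arrays and 526 and 1149 at 1.5 mg/kg/day. At 3.0 it was read at 1883 and 1842, and at 4.5 mg/kg/day at 2253 and 1215. Without normalization its log2 difference for the mean of the doses was 1.28, against 0.62 for the probe set used.

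Fabp4, the fatty acid carrier of fat cells and macrophages, was read at 3933 and 1406 on the saline arrays, 2344 and 3795 at 1.5, 7179 and 7156 at 3.0, and 6453 and 4241 at 4.5 mg/kg/day. Both 1.5 arrays lay within the saline pair. The log2 differences were 0.37, 1.47 and 1.08 (standard error 0.47). The 10 macrophage markers summed to 1337 to 2303 on the nicotine arrays and to 1871 and 1956 on the saline arrays.

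Adipoq, which encodes the hormone adiponectin and is made by fat cells, was read at 1021 and 45.1 on the saline arrays, 873 and 1481 at 1.5, 2593 and 2941 at 3.0, and 2880 and 1716 at 4.5 mg/kg/day. On the log2 scale the saline arrays differed from each other more than any nicotine array differed from saline replicate 1. The log2 differences from saline were 2.34, 3.37 and 3.13, with a standard error of 1.13. Without saline replicate 2 they were 0.30, 1.35 and 1.11, and without saline replicate 1 they were 4.41, 5.45 and 5.20.

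**Figure D2:**
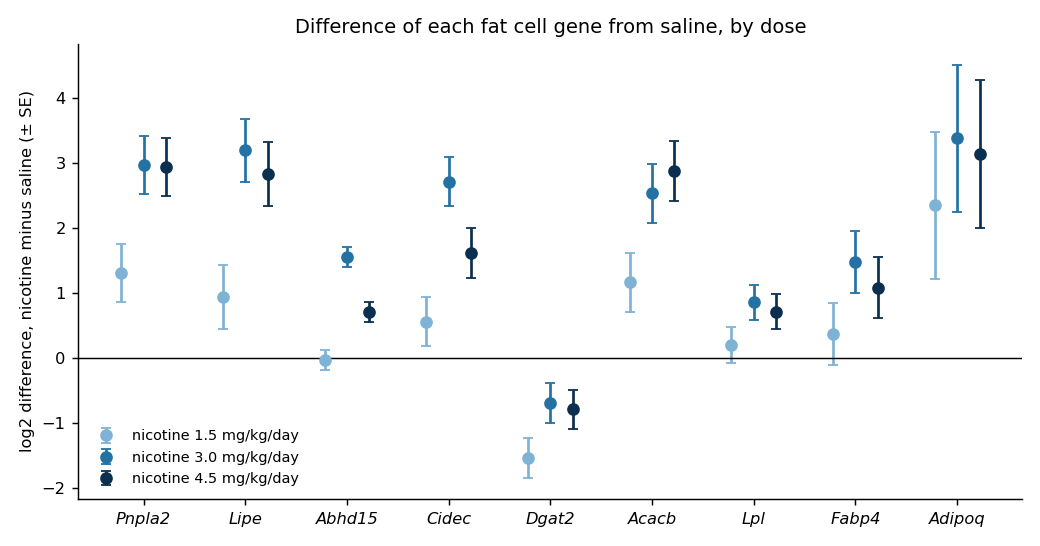
Difference of each gene from saline on the log2(intensity + 16) scale at 1.5, 3.0 and 4.5 mg/kg/day; points are fitted differences and bars standard errors of the fit over 8 arrays (2 per group). The 3 doses share the same saline arrays; Dgat2 is below 0 at each dose, and Adipoq has the widest bars (1.13).

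Across the 9 genes the median log2 difference from saline was 0.55 at 1.5, 2.52 at 3.0 and 1.61 at 4.5 mg/kg/day, and 1.62 for the mean of the doses. The medians over all 13587 genes tested were 0.04, 0.06, 0.06 and 0.07. Without saline replicate 2 the medians of the 9 genes were 0.19 at 1.5, with 5 of the 9 above saline, 1.54 at 3.0, and 0.92 for the mean of the doses. Without saline replicate 1 the median at 1.5 mg/kg/day was 1.09. The 3 comparisons share the saline arrays. On the probe set used for each gene, both 3.0 arrays lay above both saline arrays for 8 of the 9 genes, where 28.9% of all genes did so. Both 4.5 arrays did for 8 (24.1% of all genes), both 1.5 arrays for 3 (20.9%), and all 6 nicotine arrays for 3, Lipe, Pnpla2 and Acacb (11.1%). Since the genes were chosen with these levels known, nothing is read from these counts.

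The fitted group means ran in the order saline, 1.5, 4.5, 3.0 mg/kg/day for 6 genes (Pnpla2, Lipe, Cidec, Lpl, Fabp4 and Adipoq). Acacb ran saline, 1.5, 3.0, 4.5, Abhd15 ran 1.5, saline, 4.5, 3.0, and Dgat2 ran 1.5, 4.5, 3.0, saline. Both 3.0 arrays lay above both 1.5 arrays for 9 of 9 genes (26.8% of all genes) and both 4.5 arrays for 8 of 9 (14% of all genes), with Lpl the exception. On the second Lpl probe set both 4.5 arrays did lie above both 1.5 arrays. Between the higher doses, both 3.0 arrays lay above both 4.5 arrays for Cidec, Fabp4 and Abhd15 (23.9% of all genes), and the other 6 overlapped. On the second Abhd15 probe set and on a weaker Fabp4 probe set the arrays of these doses overlapped. Nothing is read from these counts either.

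The differences between nicotine doses use no saline array, but the tissue sums differed here too. Stomach sums lay between 187 and 204 on the 6 nicotine arrays. Intestine sums were 561 and 603 at 1.5 and 178 to 212 at the higher doses, and replicate 2 of 1.5 held liver markers at 18965 and heart markers at 12461. Brown fat sums, given below, also differed by dose, and the part of these sums was not tested. At 3.0 against 1.5 mg/kg/day the log2 difference was above 0 for all 9 genes, with a median of 1.36 and a range of 0.65 to 2.25. Lipe stood at 2.25, Cidec at 2.15 and Abhd15 at 1.58. At 4.5 against 1.5 mg/kg/day all 9 were above 0 with a median of 0.79. At 4.5 against 3.0 mg/kg/day 8 of 9 were below 0, with a median of −0.24, Cidec at −1.10 and Acacb at 0.35. The medians over all genes tested lay at 0.00, 0.00 and −0.01. With limma and Benjamini-Hochberg adjustment over all genes, 0% of genes passed 0.05 in any of these 3 comparisons, while 1472, 963 and 535 genes had an unadjusted p under 0.05.

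The 2 arrays of a group differed for these genes, and mostly in the same direction within a group. Under saline 7 of 9 genes were higher on replicate 1, by a median of 0.60 on the log2 scale, with Adipoq at 4.08 and Fabp4 at 1.50. At 1.5 mg/kg/day 2 were, with a median of −0.46 for replicate 1 minus replicate 2, and at 3.0 mg/kg/day none was, with a median of −0.21. At 4.5 mg/kg/day all 9 were, with a median of 0.54 and Lipe at 1.52. The median size of the replicate difference for the 9 genes was 0.60 under saline, 0.54 at 1.5, 0.21 at 3.0 and 0.54 at 4.5 mg/kg/day, against 0.30, 0.26, 0.16 and 0.26 over all genes tested. Saline replicate 2 was the lowest of the 8 arrays for 7 of the 9 genes.

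**Figure D3:**
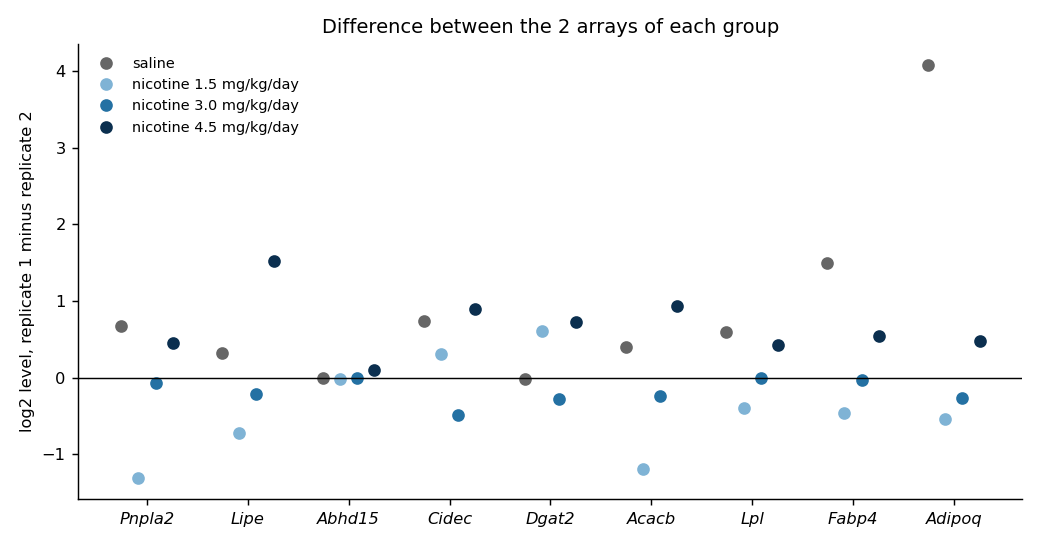
Replicate 1 minus replicate 2 of each group on the log2 scale, for each of the 9 genes; each point is 1 pair of arrays. The saline pair differs by 4.08 for Adipoq, while the 3.0 mg/kg/day pairs stay close to 0.

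Without saline replicate 2 the mean difference of the nicotine doses from saline was 0.92 for Adipoq (2.95 with it), 0.22 for Fabp4 (0.97 with it) and 0.28 for Lpl (0.58 with it). It was 2.08 for Pnpla2, 2.15 for Lipe, 1.98 for Acacb, 1.26 for Cidec, 0.74 for Abhd15 and −1.02 for Dgat2. At 1.5 mg/kg/day alone, leaving that array out turned the sign for Fabp4 (−0.38) and for Lpl (−0.11).

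Over the 8 arrays 8 of the 9 genes ran together, a description in which all points share dose and array. The correlation of a gene with the mean level of the other 8 was 0.97 for Lpl, 0.96 for Lipe, 0.94 for Cidec, 0.94 for Fabp4, 0.91 for Pnpla2, 0.89 for Acacb, 0.85 for Abhd15 and 0.77 for Adipoq. For Dgat2 it was −0.19. Among all other genes tested, the 10 whose levels followed the mean of the set most closely were Vps33a (r = 0.99 over 8 arrays), Adig, Btnl9, Rnf32, Jade1, Rtca, Aifm2, Idh3a, Spaca1 and Plaat3 (r = 0.97). Adig was read at 92.4 and 6.95 on the saline arrays, 57.5 and 111 at 1.5, 421 and 821 at 3.0, and 484 and 175 at 4.5 mg/kg/day. Idh3a was read at 1251 and 1105 on the saline arrays, 1080 and 1818 at 1.5, 3536 and 3274 at 3.0, and 3628 and 1998 at 4.5 mg/kg/day.

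Other genes of the fat cell were then tested, in 7 lists of 83 genes, of which 77 had a probe set and 76 were above the level filter. For the mean of the nicotine doses against saline, 12 rose and 4 fell at an adjusted p under 0.05 (limma, Benjamini-Hochberg over all genes), 21.1% of the 76 where 10.2% of all genes passed. The median difference over the 76 was 0.58, where all genes had 0.07. These lists were chosen with earlier results of the same arrays known. Mogat2, among the 4 that fell, passed the level filter through its saline arrays. The count was 6 without saline replicate 2, 5 without either array of 3.0 mg/kg/day and 8 without replicate 1 of 4.5 mg/kg/day.

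By dose, 1 of the 76 rose and 3 fell at 1.5 (2.48% of all genes passed), 8 rose and 2 fell at 3.0 (3.73%), and 10 rose and 3 fell at 4.5 mg/kg/day (6.87%). Leaving out single arrays moved these counts. The count at 1.5 was 12 without saline replicate 1 and 2 without saline replicate 2, without replicate 1 of 1.5 or without either 3.0 array. The count at 3.0 was 19 without saline replicate 1, 3 without saline replicate 2 and 0 without either 3.0 array. The count at 4.5 was 24 without saline replicate 1, 5 without saline replicate 2, 4 without either 3.0 array or without replicate 2 of 4.5, and 3 without replicate 1 of 4.5. A slope of the log2 level over the doses passed for 5 higher and 1 lower of the 76 (0.802% of all genes), a count that fell to 0 without either saline array, either 3.0 array or replicate 1 of 4.5, and was 13 without replicate 2 of 1.5.

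Droplet proteins had the most passing genes, 4 up and 2 down of 12. Cidea, a droplet protein of brown fat, was read at 71.8 and 33.7 on the saline arrays, 121 and 302 at 1.5, 2262 and 2610 at 3.0, and 2241 and 675 at 4.5 mg/kg/day. Its mean log2 difference was 3.72 ± 0.45 (SE, adjusted p = 0.00685, limma), and all 6 nicotine arrays were above both saline arrays. Plin4, a droplet coat protein, rose by 2.07 ± 0.39 (adjusted p = 0.026). Fitm1 and Fitm2, which help droplets bud from the endoplasmic reticulum, rose by 1.43 ± 0.19 and 1.07 ± 0.18 (adjusted p = 0.00857 and 0.0192), and the call of Fitm2 was lost without saline replicate 2, either 3.0 array or replicate 1 of 4.5 mg/kg/day. Fitm1 is chiefly a gene of muscle and heart, and the skeletal muscle sums above were higher on the nicotine arrays.

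The droplet genes that fell were Cideb and Plin2. Cideb, which acts in liver and intestine, was read at 13.7 and 49.0 at 1.5, 16.99 and 16.52 at 3.0 and 7.42 and 6.94 at 4.5 mg/kg/day, against 287 and 549 on the saline arrays. Its difference was −3.61 ± 0.32 (adjusted p = 0.00202, limma). Plin2, a droplet coat protein found in most tissues, differed by −0.76 ± 0.16 (adjusted p = 0.035), although its 3.0 mg/kg/day arrays lay within the saline pair. The stomach, intestine and liver marker sums given above were lower on the nicotine arrays, save the liver sum of replicate 2 of 1.5 mg/kg/day. On that array, with a liver sum of 18965, Plin2 was read at 718 and Cideb at 49.0. At 3.0 mg/kg/day, with liver sums of 111 and 114, Plin2 was read at 1830 and 1996. The part of these sums in both genes was not tested.

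Among 10 genes of lipolysis and its control, 1 rose and 1 fell. Pde3b, the phosphodiesterase through which insulin restrains lipolysis, was read at 192 and 174 on the saline arrays, 148 and 176 at 1.5, 417 and 471 at 3.0, and 428 and 304 at 4.5 mg/kg/day. Only the higher doses stood apart from saline. The mean difference was 0.75 ± 0.16 (adjusted p = 0.0349, limma). Lipa, the lysosomal acid lipase, fell by 1.34 on the log2 scale (SE 0.32, adjusted p = 0.0448), although 1 array of 3.0 mg/kg/day, at 408, lay inside the saline pair of 399 and 799. The calls of both genes were fragile: over 18 alternatives Pde3b passed in 8, with adjusted p up to 0.125, and Lipa in 6, with adjusted p up to 0.183. Both calls were lost without saline replicate 2, without either 3.0 array and without replicate 1 of 4.5. The call of Pde3b was also lost without saline replicate 1 or replicate 2 of 1.5, and that of Lipa without replicate 1 of 1.5 or replicate 2 of 4.5. Abhd5, the co-activator of Pnpla2, differed by 0.74 ± 0.24 (adjusted p = 0.0935) and Mgll, which cleaves the last fatty acid, by 0.91 ± 0.30 (adjusted p = 0.0947), both short of the threshold.

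Triglyceride synthesis had 1 passing gene of 11, and it fell. Mogat2, an acyltransferase of the intestine, was read at 2.82 to 17.9 on the nicotine arrays, against 501 and 205 on the saline arrays (difference −3.73 ± 0.34, adjusted p = 0.0023, limma). Its nicotine readings lay around or under the level filter, an intensity of 14.8, so that it was tested through its saline arrays. The list's median was 0.44. None of the 12 fatty acid synthesis genes passed by limma, and the list's median of 0.05 lay beside the 0.07 of all genes. An unadjusted p under 0.05 was found for 2 of the 12 and for 4178 of the 13587 genes tested. Thrsp, a lipogenic regulator, had a difference of 3.18 ± 0.91 (adjusted p = 0.0697) and Scd1, the stearoyl-CoA desaturase, 1.63 ± 0.67 (adjusted p = 0.153). Thrsp was read at 93.3 and 72.6 on the saline arrays, 104 and 872 at 1.5, 1124 and 1717 at 3.0, and 3721 and 445 at 4.5 mg/kg/day, so that the arrays of 1 dose differed widely.

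Of 11 genes of lipid and glucose uptake, 4 rose and none fell by limma. An unadjusted p under 0.05 was found for 7 of the 11 and for 4178 of the 13587 genes tested. Gpihbp1, the capillary anchor of Lpl, was read at 145 and 121 on the saline arrays, 185 and 357 at 1.5, 472 and 578 at 3.0, and 723 and 419 at 4.5 mg/kg/day. All 6 nicotine arrays lay above both saline arrays, with a mean difference of 1.64 ± 0.27 (adjusted p = 0.017, limma). Slc2a4, the insulin-regulated glucose transporter of fat and muscle, rose by 1.53 ± 0.26 (adjusted p = 0.0192), Vldlr, a lipoprotein receptor, by 1.40 ± 0.33 (adjusted p = 0.0447) and Slc27a1, a fatty acid transporter, by 0.64 ± 0.15 (adjusted p = 0.0426). Over 18 alternatives Vldlr passed in 7, with adjusted p up to 0.164, and Slc27a1 in 5, with adjusted p up to 0.141. Slc27a1 lost its call without any single array, and Vldlr without any single array of saline, 3.0 or 4.5 mg/kg/day. Gpihbp1 and Slc2a4 lost theirs without saline replicate 2 or either 3.0 array, and Slc2a4 also without replicate 1 of 4.5. The 10 endothelial markers, above the filter on every array, summed to 1555 to 3842 on the nicotine arrays and to 1604 and 1831 on the saline arrays, and their part in these values was not tested.

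None of the 8 secreted fat cell factors tested passed by limma. An unadjusted p under 0.05 was found for 5 of them and for 4178 of the 13587 genes tested. The list had 5 genes above saline and 3 below (55.9% of all genes lay above), with a median of 0.20. Adig differed by 2.45 ± 0.61 (adjusted p = 0.0513) and Nampt, an enzyme of NAD synthesis that is also secreted, by 1.18 ± 0.38 (adjusted p = 0.092). Rbp4, the retinol carrier made mainly by liver, differed by −2.08 ± 0.75 (adjusted p = 0.117, limma). It was read at 761 and 3714 on the saline arrays, 274 and 1582 at 1.5, and 231 to 366 at the higher doses. Liver marker sums were high on both saline arrays and on replicate 2 of 1.5 mg/kg/day, and their part in Rbp4 was not tested. Retn, which encodes resistin, was read at 354.6 and 10.97 on the saline arrays, 228 and 412 at 1.5, 566 and 879 at 3.0, and 437 and 98.6 at 4.5 mg/kg/day, with a difference of 1.93 ± 0.95 (adjusted p = 0.22). As with Adipoq, the saline arrays lay far apart. Lep, which encodes leptin, was read at 24.98 and 21.5 at 3.0 mg/kg/day and at 4.2 to 14.8 on the other 6 arrays, and its mean over the arrays fell under the level filter. Cfd, which encodes adipsin, was not analysed here.

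Regulators of fat cell formation had 3 rising genes of 12, a median of 0.92, and all 12 differences above 0 (55.9% of all genes were). Dlk1, which marks preadipocytes and holds back their maturation, was read at 3366 and 3146 at 1.5, 3422 and 2611 at 3.0 and 3433 and 3170 at 4.5 mg/kg/day, against 1407 and 1427 on the saline arrays. The nicotine pairs overlapped each other and all stood above saline (mean difference 1.08 ± 0.16, adjusted p = 0.0117, limma). Zfp423, a factor that commits cells to the fat lineage, rose by 0.97 ± 0.15 (adjusted p = 0.0131) and Ebf2, a factor of brown fat precursors, by 1.99 ± 0.38 (adjusted p = 0.0263). Both lost their call without either 3.0 array, and Ebf2 also without saline replicate 2 or replicate 1 of 4.5. Pparg, the master regulator of fat cells, differed by 1.68 ± 0.53 (adjusted p = 0.0866) and Cebpa by 0.57 ± 0.35 (adjusted p = 0.311).

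**Figure D4:**
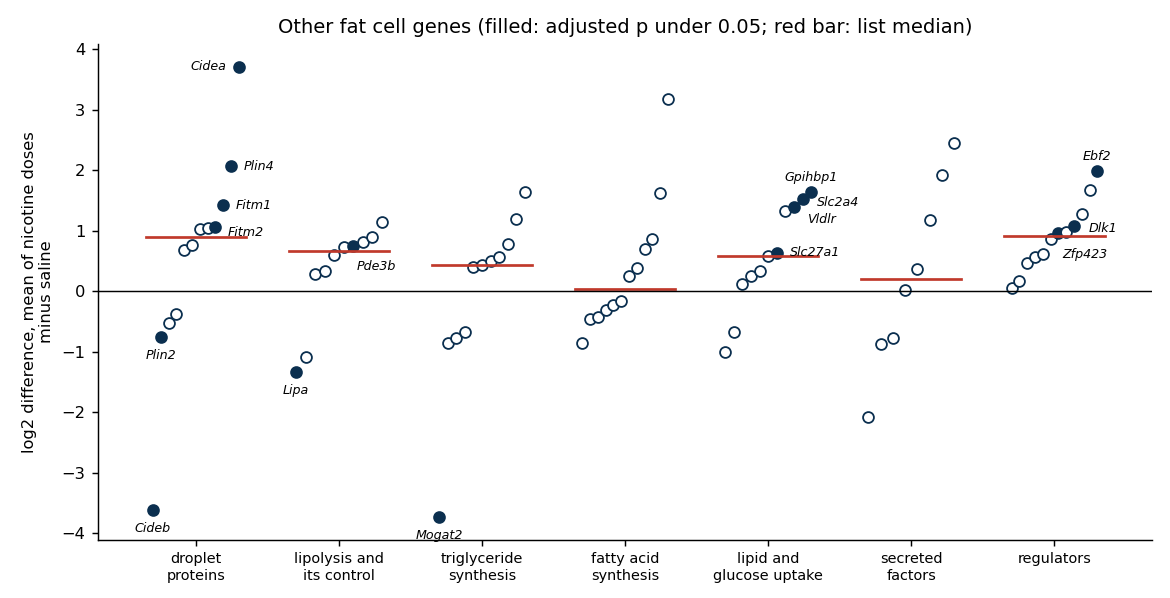
Difference of the mean of the nicotine doses from saline (log2 scale) for the 76 other fat cell genes tested, by list; each point is 1 gene, filled where the adjusted p was under 0.05, and the bars are list medians. Droplet proteins hold 6 filled points and fatty acid synthesis and secreted factors none.

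Markers of brown fat were read beside the set. The 14 markers, 10 to 14 of them above the filter on an array, summed to 1577 and 1666 on the saline arrays, 1487 and 3940 at 1.5, 13272 and 15703 at 3.0, and 13867 and 4365 at 4.5 mg/kg/day. Of the 13 tested for the mean of the doses against saline, 4 rose and none fell by limma, where 10.2% of all genes passed. Above saline lay 10 and below it 3, where 55.9% of all genes lay above, and the median difference was 1.22. The 4 were Cidea, counted also among the droplet proteins, Cox8b, Cox7a1 and Dio2. The 3 below saline, named after their values were seen, were Prdm16 (−0.74, adjusted p = 0.181), Zic1 (−0.27, adjusted p = 0.814) and Acot2 (−0.15, adjusted p = 0.726). Saline replicate 2, the lowest array for most of the 9 genes, had the higher sum of its pair, but the markers went in both directions. On saline replicates 1 and 2, Pank1 was read at 168 and 645 and Acot2 at 181 and 296. Cidea was read there at 71.8 and 33.7 and Cox8b at 398 and 198. Ucp1, which defines brown fat cells, was read at 5.97 and 2.78 on the saline arrays, 5.12 and 399 at 1.5, 4681 and 4906 at 3.0, and 4025 and 79.6 at 4.5 mg/kg/day. Its mean difference was 5.01 ± 1.50 (adjusted p = 0.0775, limma), with replicate 2 of 4.5 far below replicate 1. Adipoq was read at 873 on replicate 1 of 1.5 mg/kg/day and at 1021 on saline replicate 1, where Ucp1 was at 5.12 and 5.97. The brown fat sums' part in the values of the 9 genes was not tested.

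**Figure D5:**
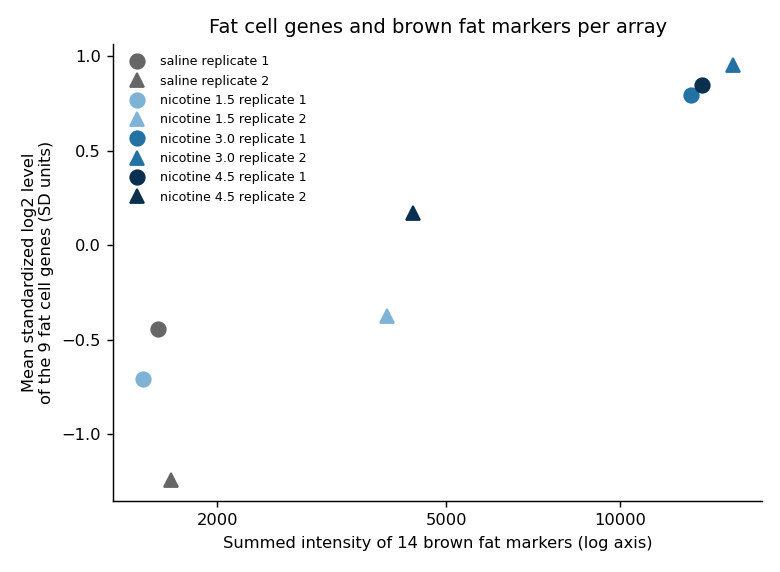
Mean standardized log2 level of the 9 genes (y, in SDs of each gene over the 8 arrays) against the summed intensity of 14 brown fat markers (x, log axis), 1 point per array. Both arrays of 3.0 mg/kg/day and replicate 1 of 4.5 mg/kg/day lie at the upper right, at 0.80, 0.96 and 0.85 SD, and saline replicate 2 is lowest, at −1.24 SD.

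Of the genes named here, Cym, the stomach protease chymosin, had the widest difference from saline. It was read at 5.20 to 11.9 on the nicotine arrays, against 5168 and 5000 on the saline arrays (−7.79 ± 0.13, adjusted p = 2.34e-06, limma). The nicotine readings of Cym lay under the level filter, an intensity of 14.8, so that it was tested through its saline arrays. Alb, the albumin gene of liver, was read at 5001 on replicate 2 of 1.5 mg/kg/day and at 19.8 to 26.0 on the other 5 nicotine arrays, against 3399 and 7002 on the saline arrays (−5.82 ± 1.59, adjusted p = 0.0627). The 3 arrays with high liver markers were also left out in turn. The median difference of the 9 genes at 3.0 mg/kg/day was 2.74 without saline replicate 1 and 1.54 without saline replicate 2, against 2.52 with all arrays. That difference uses no 1.5 mg/kg/day array, so leaving out replicate 2 of 1.5 can hardly move it and checks nothing about liver. It was 2.54 without that array, and 1.54 without both that array and saline replicate 2.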

How the data were processed

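Intensities were measured on 8 Affymetrix arrays of newborn mouse palate (2 for each of 4 doses). The deposited values are linear intensities of 45101 probe sets; the sources used here do not say how the authors summarized and scaled them. Precision is limited by the number of arrays.

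Values were taken as log2(intensity + 16) and quantile-normalized. Of the probe sets naming 1 gene, the one with the highest mean stood for each of 18194 genes. Genes under the 40th percentile of probe sets (log2 level 4.94) were left out, leaving 13587. The model of limma 3.58.1 in R 4.3.3 had a mean for each group (two-sided, Benjamini-Hochberg over all genes, threshold 0.05), after a test on simulated data. Errors are standard errors of the fit.

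The 10 genes and the lists were chosen with earlier results of these data known. Named besides the 10 were up to 4 genes of each list with the smallest p, the 10 genes most alike, and Ucp1, Cidea, Cym, Alb, Pparg, Cebpa, Cfd, Lep and Retn; Plin4 and Plin2 were added after their values were seen. Alternatives were constant, scaling, filter, probe set choice, array weights, replicate block and single arrays left out.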

Additional observations from a re-analysis of the deposited data

How the results depend on the processing

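The median difference of the 9 genes from saline stayed above 0 under all 18 alternatives run, but at 1.5 mg/kg/day it was 0.03, with 5 genes higher and 4 lower, without replicate 2 of both 1.5 mg/kg/day and saline, and ran from 0.19 to 1.09 with single arrays left out, against 0.55. For the mean of the doses it ran from 0.82 to 2.00, against 1.62. At 3.0 mg/kg/day it was 1.44 with the mean of all probe sets of a gene, 1.54 without replicate 2 of both 1.5 mg/kg/day and saline, and 1.54 to 2.74 with single arrays left out, against 2.52. At 4.5 against 3.0 mg/kg/day it ran between −0.48 and 0.08. The counts of other fat cell genes depended more on the setting. With array weights they were 2 at 1.5, 16 at 3.0 and 8 at 4.5 mg/kg/day. With replicate number as a block they were 2 at 1.5 and 6 at 3.0 mg/kg/day. The replicate differences of 2 groups correlated between −0.22 and 0.33 over genes, which cannot settle whether the numbers pair the arrays. Without replicate 2 of both 1.5 mg/kg/day and saline the count was 17 at 3.0 against saline, 6 at 3.0 against 1.5 and 3 at 4.5 against 1.5. The slope count was 0 with a constant of 64, centring on the array median, no filter, the mean of probe sets, array weights, the replicate block, or without both those arrays. With single arrays left out the counts ran from 2 to 12 at 1.5, 0 to 19 at 3.0, 3 to 24 at 4.5, 5 to 23 for the mean of the doses, and 0 to 13 for the slope. Cideb, Cidea, Fitm1 and Dlk1 passed under all 18 alternatives, Mogat2 under all 17 that could test it, Zfp423 under 16, Gpihbp1 under 15, Fitm2 and Slc2a4 under 14, Ebf2 under 13, Pde3b under 8, Vldlr under 7, Lipa under 6 and Slc27a1 under 5. The calls of Plin4 and Plin2 were not followed over the alternatives. The groups share a single estimate of the spread, so that leaving out an array also changes the tests of groups it does not belong to. The cause of these shifts was otherwise not tested.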
